A study of Oryza sativa Japonica Group with 6 samples.

Results

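The genes described here are 4 GSK3-like kinases of rice, the 3 PPKL phosphatases and *OML4*, whose protein is a substrate of GSK2. The kinases are *OsGSK1*, *GSK2*, *OsGSK3* and *OsGSK4*. The phosphatases are *OsPPKL1*, also called *qGL3*, *OsPPKL2* and *OsPPKL3*. The genes were taken by identifier, and all 8 were found among the 42189 genes listed. RNA-seq was made from young panicles, taken before heading, of NIL-*hfr131* (3 libraries) and of 187R (3 libraries). 187R is an *indica* restorer line with the *HFR131* allele of *OsBRI1*, the brassinosteroid (BR) receptor gene, although the samples are filed under the *Japonica* group. NIL-*hfr131* is a near-isogenic line in the 187R background that carries the *hfr131* allele. The allele lies on a fragment of the long arm of chromosome 1 from the wild rice *Oryza longistaminata*, so other genes of that fragment also differ between the lines. The *hfr131* allele has both a promoter deletion and an amino acid substitution in the kinase domain. No treatment was given to either line, and the panicle stage is given only as before heading. The labels call the libraries biological replicates without saying whether they came from separate plants. The *P* values therefore set the difference between the lines against the spread between these libraries.

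In BR signalling as worked out largely in *Arabidopsis*, GSK3-like kinases such as BIN2 phosphorylate transcription factors of the BZR1 group and keep them inactive. When BR binds the receptor BRI1, a relay of kinases and a Kelch-domain phosphatase of the BSU1 type switches the GSK3-like kinase off. Rice PPKL proteins are relatives of BSU1 with Kelch repeats and a phosphatase domain, and rice GSK3-like kinases are relatives of BIN2. Both families act in large part on protein phosphorylation, which mRNA levels do not measure. Kinship to BSU1 does not tell whether a rice PPKL protein switches a GSK3-like kinase off, and this was not measured here.

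The question here was whether the genes of this step were expressed at different levels in panicles with the *hfr131* and the *HFR131* receptor allele. None of the 8 genes differed between the lines at an adjusted *P* under 0.05 (limma), compared with 66 of the 21531 tested genes (0.307%) over the whole table, 0.251% being higher and 0.0557% lower in NIL-*hfr131*. NIL-*hfr131* replicate 3 had the highest level of all 8 genes, and in that library the phosphatases and *OML4* were 2.22 to 3.15 times the mean of the other 5 libraries, against 1.24 to 1.47 times for the kinases. Outside that library, 7 of the 8 genes had overlapping ranges in the lines, the exception being *OsGSK1*, at 116 and 115 TPM in NIL-*hfr131* replicates 1 and 2, against 141, 123 and 136 TPM in 187R. Over the same 5 libraries the lines did not overlap in 32.6% of tested genes, a larger share than 1 of 8.

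Values are in TPM, a gene's share of the transcripts of a library after correction for gene length, so levels of different genes in a library can be compared. Sequencing depth cannot be read from TPM and is unknown, so counting error was not estimated. The lines were compared by limma on log2(TPM + 1) values, over genes whose mean TPM reached 1, and all 8 genes passed this filter. Fold changes are NIL-*hfr131* over 187R.

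NIL-*hfr131* replicate 3 lay apart from the rest. Across tested genes its log2 values correlated at 0.916 to 0.937 with the other libraries, which correlated at 0.982 to 0.991 among themselves. Log2 fold changes are therefore given with and without this library. As a check of the tissue, 12 floral organ identity genes were all tested, and their summed level was 2752 to 3035 TPM in NIL-*hfr131* and 2590 to 2874 TPM in 187R. The sum over 6 leaf photosynthesis genes was 972 TPM in NIL-*hfr131* replicate 3, against 1414 to 1589 TPM in the other 5 libraries. Over 8 meiosis genes it was 50.1, 48.6 and 74.5 TPM in NIL-*hfr131* replicates 1, 2 and 3, against 61.7 to 62.8 TPM in 187R, and over 10 tapetum and pollen wall genes 3972, 3748 and 3054 TPM in NIL-*hfr131*, against 2443 to 2755 TPM in 187R. In NIL-*hfr131* replicates 1 and 2, the meiosis sum was thus below, and the tapetum and floral sums (3010 and 3035 TPM for the floral genes) above, every 187R library. No gene of these lists was at 0 in NIL-*hfr131* replicate 3. Of the 6 leaf photosynthesis genes, 2 were higher in NIL-*hfr131* at an adjusted *P* under 0.05 (limma), with and without replicate 3. For the 10 tapetum and pollen wall genes this held for 1 with all libraries and 2 without that library. It held for 0 of the floral and meiosis genes. Among all tested genes, 0.251% were higher with all libraries and 1.31% without that library. With all libraries the median log2 fold change was 0.006 over the leaf photosynthesis genes and 0.23 over the tapetum and pollen wall genes. That of all tested genes was 0.05. In each of those lists, 2 genes were higher and 1 was lower in NIL-*hfr131* without overlap between the lines. Among all tested genes this held for 8.59% higher and 9.96% lower. The part of panicle stage or cell makeup in the results below was not tested, and in whole panicles fewer cells of a type and less RNA per cell cannot be told apart.

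All 4 kinase genes were well expressed. *OsGSK1* (LOC_Os01g10840, chromosome 1), a kinase linked to stress tolerance as well as growth, had the highest level. It was at 116, 115 and 160 TPM in NIL-*hfr131* replicates 1, 2 and 3, against 141, 123 and 136 TPM in 187R replicates 1, 2 and 3. The first 2 NIL-*hfr131* libraries were below every 187R library and replicate 3 was above every one. The log2 fold change was -0.047 (95% confidence interval -0.42 to 0.32; adjusted p = 0.906, limma). Leaving out NIL-*hfr131* replicate 3 gave -0.20 (standard error 0.086; adjusted p = 0.338, limma; unadjusted p = 0.050, limma), with an interval from -0.41 to just above 0. The 32.6% of tested genes without overlap over these 5 libraries are made up of 13.0% higher and 19.6% lower in NIL-*hfr131*. *OsGSK1* shares its chromosome with *OsBRI1*, and its locus number, which rises along the chromosome, is 41210 lower.

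*OsGSK3* (LOC_Os02g14130, chromosome 2), whose protein works with OsPPKL1 in BR signalling, was next. It was at 99.1, 101 and 132 TPM in NIL-*hfr131* replicates 1, 2 and 3, and at 103, 93.3 and 97.1 TPM in 187R replicates 1, 2 and 3. Replicates 1 and 2 of NIL-*hfr131* lay inside the 187R range. Its log2 fold change was 0.16 (interval -0.17 to 0.50; adjusted p = 0.695, limma), and 0.027 without NIL-*hfr131* replicate 3 (interval -0.16 to 0.21).

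*GSK2* (LOC_Os05g11730, chromosome 5), the kinase most studied in rice BR signalling, which phosphorylates OML4, was at 46.4, 56.5 and 74.1 TPM in NIL-*hfr131* replicates 1, 2 and 3, and at 53.7, 43.4 and 51.3 TPM in 187R replicates 1, 2 and 3. Its ranges overlapped, and it was the most variable kinase gene among the 187R libraries, with a coefficient of variation of 10.9%. The log2 fold change was 0.23 (interval -0.22 to 0.68; adjusted p = 0.694, limma), and 0.055 without NIL-*hfr131* replicate 3 (interval -0.24 to 0.35).

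*OsGSK4* (LOC_Os06g35530, chromosome 6) was the last of the kinases described here. It was at 56.6, 56.8 and 70.9 TPM in NIL-*hfr131* replicates 1, 2 and 3, and at 57.0, 59.2 and 56.3 TPM in 187R replicates 1, 2 and 3. The 5 libraries other than NIL-*hfr131* replicate 3 lay between 56.3 and 59.2 TPM. Their standard deviation on the log2 scale was 0.029, lower than in all but 0.478% of tested genes, where the median was 0.143. For *OsGSK4* the log2 fold change was 0.086 (interval -0.21 to 0.39; adjusted p = 0.778, limma), and -0.020 without NIL-*hfr131* replicate 3 (interval -0.19 to 0.15).

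**Figure D1:**
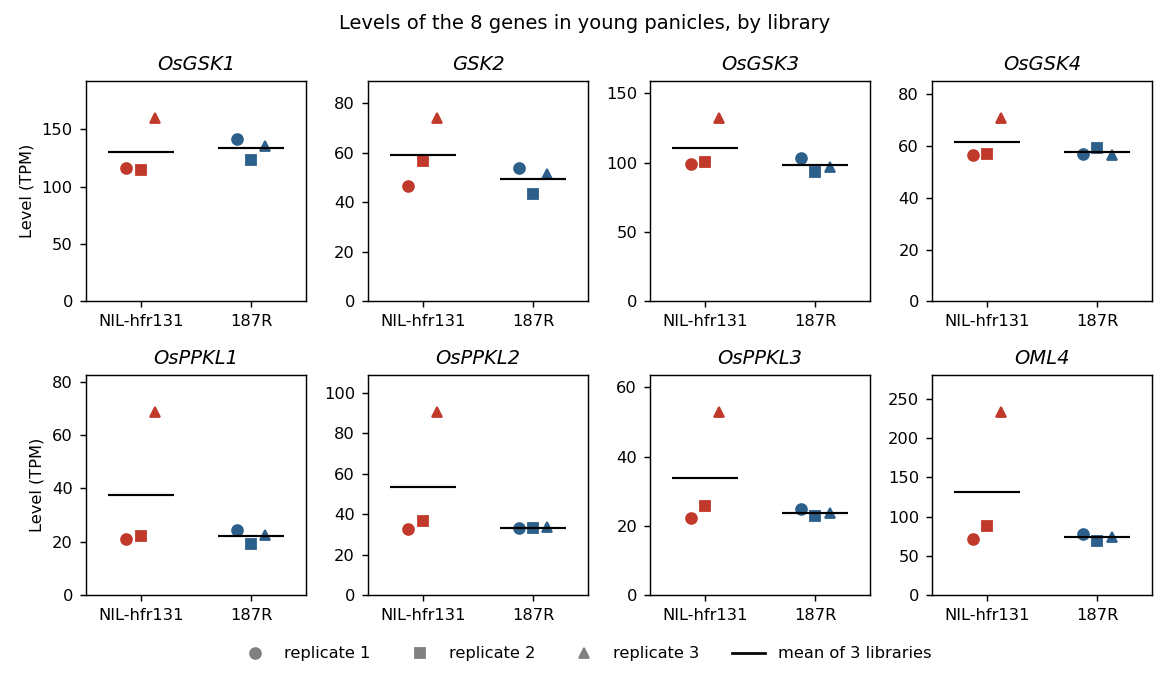
Level of each gene in TPM (vertical axis, from 0) in the 3 libraries of NIL-*hfr131* and of 187R, with a symbol per replicate number and a bar at the mean of 3 libraries. NIL-*hfr131* replicate 3 is the highest point in all 8 panels, and for *OML4* it is at 234 TPM where the other libraries are at 69.0 to 88.5 TPM.

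The phosphatase genes were expressed at lower levels. *OsPPKL1* (LOC_Os03g44500, chromosome 3), a negative regulator of grain length whose protein acts on OsGSK3, was at 21.1, 22.3 and 68.9 TPM in NIL-*hfr131* replicates 1, 2 and 3, and at 24.4, 19.1 and 22.6 TPM in 187R replicates 1, 2 and 3. The first 2 NIL-*hfr131* libraries lay inside the 187R range and replicate 3 was 3.15 times the mean of the other 5 libraries. Its log2 fold change was 0.53 (interval -0.49 to 1.55; adjusted p = 0.694, limma), and -0.012 without that library (interval -0.29 to 0.26).

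*OsPPKL2* (LOC_Os05g05240, chromosome 5), reported in rice to act on grain length in the direction opposite to *OsPPKL1*, had the highest level of the 3 phosphatases. It was at 32.6, 36.7 and 90.8 TPM in NIL-*hfr131* replicates 1, 2 and 3, and at 33.0, 33.2 and 33.6 TPM in 187R replicates 1, 2 and 3. The 187R libraries were close to one another, with a coefficient of variation of 0.784%, and NIL-*hfr131* replicates 1 and 2 lay on either side of them. The log2 fold change was 0.51 (interval -0.35 to 1.37; adjusted p = 0.694, limma), and 0.054 without NIL-*hfr131* replicate 3 (interval -0.15 to 0.26).

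*OsPPKL3* (LOC_Os12g42310, chromosome 12), like *OsPPKL1* a negative regulator of grain length, was at 22.3, 25.9 and 53.0 TPM in NIL-*hfr131* replicates 1, 2 and 3, and at 25.0, 22.8 and 23.6 TPM in 187R replicates 1, 2 and 3. It had the smallest excess of the phosphatases in NIL-*hfr131* replicate 3, at 2.22 times the mean of the other 5 libraries. For *OsPPKL3* the log2 fold change was 0.38 (interval -0.34 to 1.10; adjusted p = 0.694, limma), and 0.015 without that library (interval -0.21 to 0.24).

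*OML4* (LOC_Os02g31290, chromosome 2) encodes a Mei2-like RNA-binding protein that limits grain size. The study named this gene from the same libraries, so its direction here is not independent evidence. The gene was measured at 71.9, 88.5 and 234 TPM in NIL-*hfr131* replicates 1, 2 and 3, against 77.5, 69.0 and 73.9 TPM in 187R. Relative to *GSK2*, whose product phosphorylates the OML4 protein, its level was 1.55, 1.57 and 3.15 times as high in NIL-*hfr131* replicates 1, 2 and 3, against 1.44, 1.59 and 1.44 times in 187R replicates 1, 2 and 3. The ratios of NIL-*hfr131* replicates 1 and 2 thus lay within the 187R range, as did the *OML4* level of replicate 1, whereas replicate 3 stood far above it. With all libraries the interval of the log2 fold change of *OML4* ran from -0.33 to 1.60 around 0.63, and without NIL-*hfr131* replicate 3 from -0.14 to 0.37 around 0.12 (adjusted p = 0.688, limma).

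**Figure D2:**
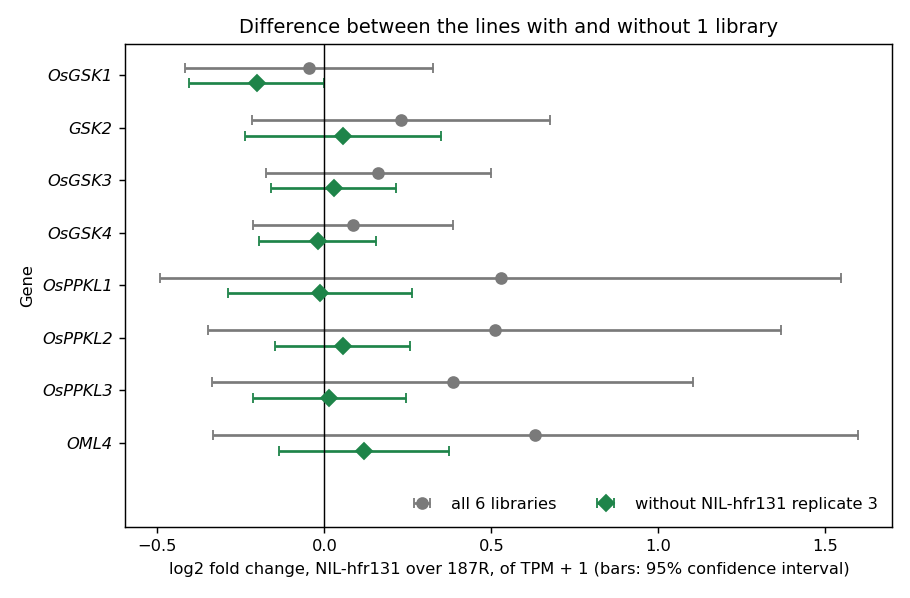
Log2 fold change of each gene, NIL-*hfr131* over 187R on the log2(TPM + 1) scale (horizontal axis), with 95% confidence intervals from limma, for all 6 libraries (grey circles) and without NIL-*hfr131* replicate 3 (green diamonds). The intervals of *OML4* and the phosphatases reach above 1 with all libraries and stop below 0.38 without that library, and for *OsGSK1* the green interval ends at 0.

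Over the 8 genes, the log2 fold changes ranged from -0.047 to 0.63 with all libraries and from -0.20 to 0.12 without NIL-*hfr131* replicate 3. The median was 0.31 with all libraries, where that of all tested genes was 0.05, and 0.02 without the library, where that of all tested genes was -0.03. No member passed an unadjusted *P* of 0.05 with all libraries, against 8.36% of tested genes, or without NIL-*hfr131* replicate 3, against 14.8%. With all libraries, 0 of the 8 genes had ranges that did not overlap between the lines, against 18.5% of tested genes (8.59% higher and 9.96% lower in NIL-*hfr131*). Without the library this held for 1 of 8, *OsGSK1*, against 32.6% of tested genes. An adjusted *P* above the threshold does not show that a gene was at the same level. With all libraries the intervals still include log2 fold changes of 1.10 to 1.60 for the phosphatases and *OML4*, and without NIL-*hfr131* replicate 3 no interval of the 8 genes went beyond 0.37 above or -0.41 below 0.

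The members differed from one another in NIL-*hfr131* replicate 3. On the log2 scale the excess of this library over the mean of the other 5 was 0.31 to 0.56 for the 4 kinases, 1.12 for *OsPPKL3*, 1.40 for *OsPPKL2*, and 1.61 for both *OsPPKL1* and *OML4*. Among tested genes the median excess was 0.16 and 11.6% of genes were above 1, so 4 of the 8 members and none of the kinases were in that part. Between 3.18% and 9.08% of tested genes had a larger excess than the phosphatases and *OML4*, and between 27.4% and 41.1% had a larger excess than the kinases. With the libraries rescaled by median-of-ratios factors (1.11 for this library and 0.953 to 0.998 for the others), the excess was 0.12 to 0.37 for the kinases, 0.93 to 1.43 for the phosphatases and 1.42 for *OML4*. That this library was the highest of all 6 is common, and was found in 47.6% of tested genes.

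**Figure D3:**
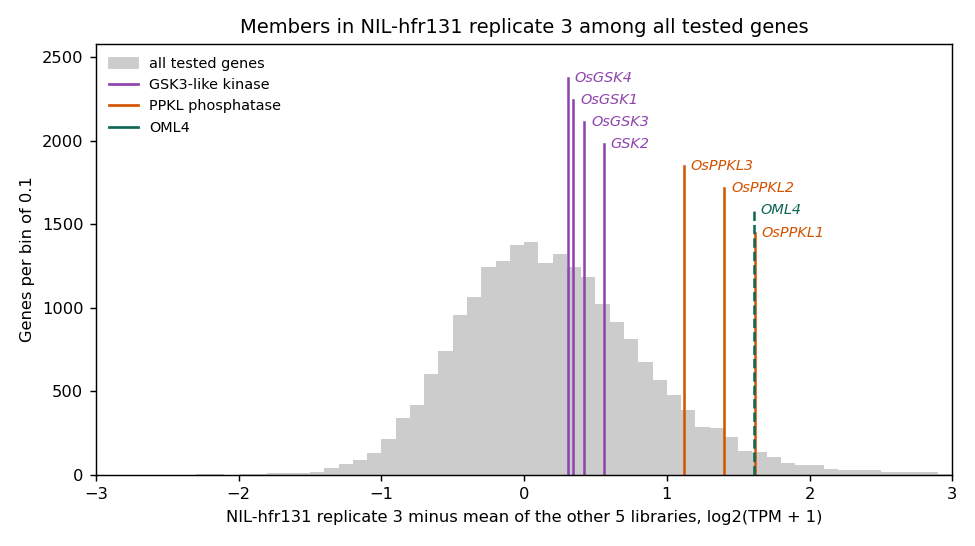
Distribution over the 21531 tested genes of the difference between NIL-*hfr131* replicate 3 and the mean of the other 5 libraries in log2(TPM + 1) (grey bars, genes per bin of 0.1), with a line at the value of each member. The 4 kinases lie at 0.31 to 0.56, inside the bulk of genes, and the 3 phosphatases and *OML4* at 1.12 to 1.61, in the upper tail, while 81 genes beyond 3 in either direction fall outside the axis.

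The balance of these kinases and phosphatases followed from these values. Summed over the kinases, the level was 318, 329 and 437 TPM in NIL-*hfr131* replicates 1, 2 and 3, and 356, 319 and 340 TPM in 187R replicates 1, 2 and 3. Summed over the phosphatases it was 76.0, 84.9 and 213 TPM in NIL-*hfr131*, and 82.4, 75.1 and 79.7 TPM in 187R. The kinase sum was thus 4.19, 3.87 and 2.06 times the phosphatase sum in NIL-*hfr131* replicates 1, 2 and 3, against 4.31, 4.25 and 4.27 times in 187R replicates 1, 2 and 3. All NIL-*hfr131* libraries had a lower ratio than all 187R libraries, but replicates 1 and 2 were only slightly lower and the line's mean of 3.37 ± 1.15 (SD, n = 3) was set by replicate 3, with a mean of 4.03 without it. The 187R libraries had a mean ratio of 4.28 ± 0.033 (SD, n = 3). Such ratios within a library do not depend on the scaling of the libraries. The phosphatase sum adds genes reported to act on grain length in opposite directions, so the ratio is not a measure of kinase activity.

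NIL-*hfr131* replicate 3 stood out less in the composition of the kinase sum than in the levels of these kinases. *OsGSK1* took 36.5%, 34.9% and 36.6% of the kinase sum in NIL-*hfr131* replicates 1, 2 and 3, against 39.8%, 38.6% and 39.9% in 187R replicates 1, 2 and 3. *OsGSK3* took 31.1%, 30.6% and 30.3% in NIL-*hfr131*, against 29.1%, 29.3% and 28.5% in 187R. The lines did not overlap in either share, with *OsGSK1* lower and *OsGSK3* higher in NIL-*hfr131*, and the 2 shares are not independent of each other. The level of *OsGSK1* was 1.14 to 1.21 times that of *OsGSK3* in NIL-*hfr131* and 1.32 to 1.40 times in 187R. These shares and this ratio were singled out after their values were seen, and no test was made of them. *GSK2* took 14.6% to 17.2% in NIL-*hfr131* and 13.6% to 15.1% in 187R, and *OsGSK4* 16.2% to 17.8% in NIL-*hfr131* and 16.0% to 18.6% in 187R, both overlapping. The kinases are related in sequence, as are the phosphatases, and how the authors assigned reads that match more than 1 gene is not given in the sources used here, so shares within a family are less certain than the family sums.

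**Figure D4:**
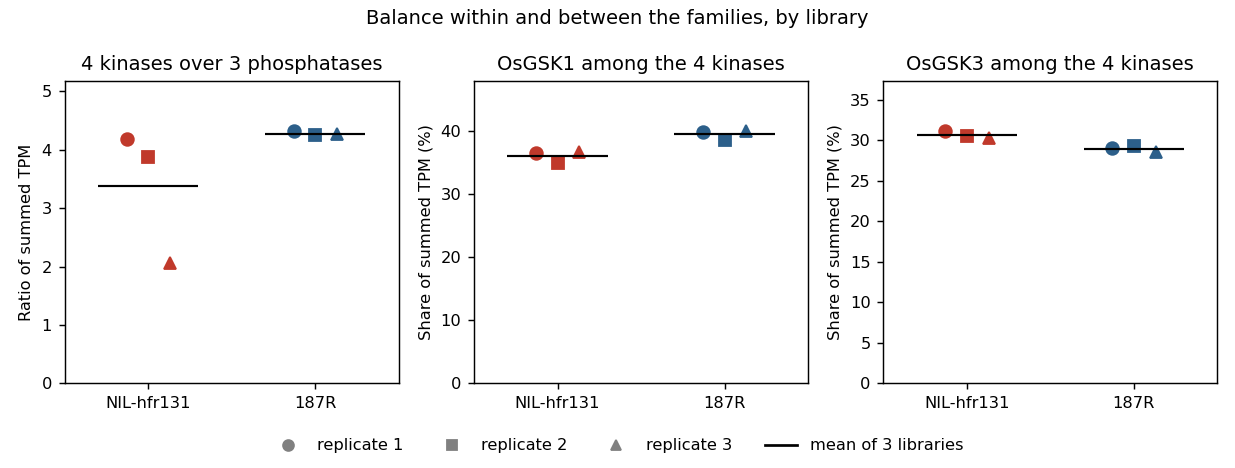
Ratio of the summed TPM of the 4 kinases to that of the 3 phosphatases (left), and share of the kinase sum in percent taken by *OsGSK1* (middle) and *OsGSK3* (right), by library, with bars at the mean of 3 libraries and axes from 0. NIL-*hfr131* replicate 3 has the lowest ratio, at 2.06, but lies with the other NIL-*hfr131* libraries in both shares, which do not overlap with 187R.

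Among the phosphatases the composition was less steady in NIL-*hfr131* replicate 3. *OsPPKL1* took 27.7%, 26.3% and 32.4% of the phosphatase sum in NIL-*hfr131* replicates 1, 2 and 3, and 29.6%, 25.4% and 28.3% in 187R replicates 1, 2 and 3. *OsPPKL2* took 42.7% to 43.2% in NIL-*hfr131* and 40.1% to 44.2% in 187R. *OsPPKL3* took 29.4%, 30.5% and 24.9% in NIL-*hfr131*, against 29.6% to 30.4% in 187R, so it was below *OsPPKL1* only in NIL-*hfr131* replicate 3.

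In the 187R libraries the order of the levels was *OsGSK1*, *OsGSK3*, *OML4*, *OsGSK4*, *GSK2*, *OsPPKL2*, *OsPPKL3* and *OsPPKL1*, with means of 133, 98.0, 73.5, 57.5, 49.5, 33.3, 23.8 and 22.0 TPM. The ranges over libraries of *OsPPKL3* and *OsPPKL1* overlapped in 187R, so these neighbours did not differ beyond their spread, although *OsPPKL3* was the higher in each of the 3 libraries. *OsGSK4* and *GSK2* did not overlap in 187R but did so over the 5 libraries other than NIL-*hfr131* replicate 3. *OsGSK1* was above *OsGSK3*, and *OsPPKL2* above *OsPPKL3*, in all 6 libraries. In NIL-*hfr131* replicate 3 *OML4* stood first, *OsPPKL2* was above *GSK2*, and *GSK2* was above *OsGSK4*. By mean level the members lay between the 68.5th percentile of tested genes (*OsPPKL3*) and the 93.6th (*OsGSK1*).

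Among the 5 libraries other than NIL-*hfr131* replicate 3, replicate 2 of NIL-*hfr131* had the highest level of 4 members (*GSK2*, *OsPPKL2*, *OsPPKL3* and *OML4*), and 187R replicate 2 had the lowest level of 4 (*GSK2*, *OsGSK3*, *OsPPKL1* and *OML4*). Over the same libraries the standard deviation on the log2 scale was 0.055 for *OsGSK3* and 0.066 for *OsPPKL2*, below the median of tested genes, and 0.126 to 0.152 for *OsPPKL1*, *OsGSK1*, *OML4* and *GSK2*, close to it. The tested genes outside the members whose profile over all 6 libraries was most like that of *OML4* were LOC_Os03g20700 and LOC_Os07g10490. Their Pearson correlation with *OML4* on the log2 scale was above 0.99, as it was for 597 tested genes, or 2.77%. Since NIL-*hfr131* replicate 3 stands apart, such a correlation over all libraries mostly reflects that library, and 8 of the 597 genes were also above 0.99 over the other 5 libraries.

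Upstream of the kinases, the receptor gene *OsBRI1* (LOC_Os01g52050, chromosome 1) had, like the members, its highest level in NIL-*hfr131* replicate 3. It was at 117 TPM in that library and at 68.7 and 71.5 TPM in NIL-*hfr131* replicates 1 and 2, against 58.7 to 66.7 TPM in 187R. The lines thus did not overlap with or without that library. Among tested genes, 8.59% were higher in NIL-*hfr131* without overlap with all libraries, and 13.0% without replicate 3. The paper reports higher expression of this gene in stem and leaf of NIL-*hfr131* by qPCR, and a more active promoter in a reporter assay. In the panicle libraries *OsBRI1* was not called, with a log2 fold change of 0.40 (adjusted p = 0.685, limma), and 0.15 without NIL-*hfr131* replicate 3 (adjusted p = 0.466, limma). *OsARF17* (LOC_Os06g46410, chromosome 6) is the auxin response factor gene that the study places upstream of *OsBRI1*. It was also highest in NIL-*hfr131* replicate 3, as were 47.6% of tested genes. Its level was 47.6, 52.2 and 152 TPM in NIL-*hfr131* replicates 1, 2 and 3, and 57.0, 36.7 and 46.1 TPM in 187R replicates 1, 2 and 3, and the log2 fold change was 0.65 with all libraries and 0.12 without NIL-*hfr131* replicate 3. Of 13 genes of BR signalling around these kinases, taken by identifier and including *OsBRI1* and *GS2*, 0 were called with or without NIL-*hfr131* replicate 3, with a median log2 fold change of 0.19 with all libraries and 0.03 without that library. Without it, 1.8% of tested genes were called, 1.31% higher and 0.498% lower in NIL-*hfr131*. Their summed level in NIL-*hfr131* replicate 3 was 590 TPM, 1.30 times the mean of the other 5 libraries. The 7 pathway genes with an identifier in the paper are *OsBRI1*, *OsARF17*, *D2*, *D11*, *BRD1*, *GS2* and *OsREM4.1*. With all libraries 0 of them were called, against 0.307% of tested genes. Without overlap between the lines, 5 were higher and 1 was lower in NIL-*hfr131*, against 8.59% and 9.96% of tested genes. *D11*, a BR synthesis gene, was at 38.6 to 53.4 TPM in NIL-*hfr131* and 20.5 to 21.2 TPM in 187R. Its all-library log2 fold change was 1.02 (interval 0.67 to 1.38), with an adjusted *P* of 0.066 (limma), above the threshold. *D11* alone was called, as higher, once NIL-*hfr131* replicate 3 had been left out. The study chose 5 of these 7 genes on the same libraries.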

How the data were processed

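Total RNA was extracted from young panicles, and the authors made mRNA libraries that were sequenced on an MGISEQ-2000 platform. The authors deposited TPM values for 42189 genes, and each library summed to 1000000. The methods name FPKM. The aligner, genome build, annotation and treatment of multiply matching reads are not given in the sources used here. TPM keeps no depth, so the error was estimated from the spread between 3 libraries per line, together with the variance prior of limma. Libraries were grouped by the word WT or mutant in their labels. The labels do not name the near-isogenic line, which was taken from the paper to be the mutant.

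The 21531 genes whose mean TPM reached 1 were tested. Their log2(TPM + 1) values entered limma 3.58.1 (R 4.3.3) with the line as the only term and the variance prior following the mean level, and two-sided *P* values received Benjamini-Hochberg adjustment across these genes (threshold 0.05). Fold changes are understated for weakly expressed genes. The code was tested on simulated data. Sums, ratios and ranges were computed with Python 3.11.15, pandas 2.3.3 and numpy 2.4.6, and plots were drawn with matplotlib 3.10.9. Alternatives tried were scaling by median-of-ratios factors or by quantiles, adding 0.1 in place of 1, testing without a filter or with a minimum mean of 5 TPM, a prior that did not follow the level, the replicate number as a block, and each library left out.

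The members and lists were chosen with earlier results of these data known. The named genes are the members, the pathway genes with an identifier in the paper, and the 2 genes most like *OML4*. Member names were given with their identifiers. Marker and BR signalling lists come from general knowledge and are used as lists, since the RefSeq table of rice genes held 0 of the 42189 identifiers. No genome positions or sequences are therefore given.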

Additional observations from a re-analysis of the deposited data

How the results depend on the processing

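No member passed the adjusted threshold under any of the alternatives. For each member the direction of the log2 fold change was the same in every alternative except for 3 genes. *OsGSK1* was at 0.026 and 0.035 without NIL-*hfr131* replicates 1 and 2, and *OsGSK4* was at -0.020 and *OsPPKL1* at -0.012 without NIL-*hfr131* replicate 3. With median-of-ratios factors in addition, an alternative chosen after seeing the data, these last 2 were 0.0089 and 0.016. With a library left out, the log2 fold change ranged from -0.20 to 0.035 for *OsGSK1*, 0.055 to 0.39 for *GSK2*, 0.027 to 0.23 for *OsGSK3*, -0.020 to 0.14 for *OsGSK4*, -0.012 to 0.82 for *OsPPKL1*, 0.054 to 0.78 for *OsPPKL2*, 0.015 to 0.62 for *OsPPKL3* and 0.12 to 0.96 for *OML4*. The number of genes called over the whole table was 66 with all libraries and 13 to 384 with a library left out. The highest count was without NIL-*hfr131* replicate 3 (384, and 414 with median-of-ratios factors). The other counts were 28 and 15 without NIL-*hfr131* replicates 1 and 2, and 14, 13 and 13 without 187R replicates 1, 2 and 3. With the replicate number as a block (replicate block) 16 genes were called and no member. Same-numbered libraries correlated at -0.21 to 0.09 in their deviations from the line means, and libraries with different numbers at -0.23 to 0.32. Of 3 NIL-*hfr131* libraries, 1 correlated best with its own number. The mean of NIL-*hfr131* includes the outlying replicate 3, so these values cannot decide whether the numbers pair the libraries. The cause of the changes in fold changes and counts was not tested. With the depth unknown, all errors of the fold changes rest on the spread between 3 libraries per line, or fewer with a library left out. They also rest on the variance prior that limma draws from all tested genes.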
